A study of Mus musculus with 6 samples.

Results

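The genes described here are 44 that copy the genome in S phase or are made for it: the replicative helicase, the origin factors that load it, the DNA polymerases and primase, the sliding clamp and its loader, the single-strand binding protein, the enzymes that join Okazaki fragments, the enzymes that supply deoxynucleotides, and factors that rebuild chromatin behind the fork. They were chosen by name. Each was read from the probe set that carries its symbol alone, the one with the highest mean signal where there were several. Of the 44 genes, 43 had such a probe set among the 18193 genes covered, and 40 of these passed the filter on dim genes (a mean log2 value at or above the median of all probe sets), which left 11569 genes in all. Chaf1a is not analysed here, and Cdc6, Tyms and Tk1 were too dim to be tested.

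The study hybridised total RNA of whole mammary glands from 6 female mice of a mixed 129/FVB/Black Swiss background, 1 mouse per array, in 3 pairs, each made of a Brca1 mutant gland and a stage-matched control gland. The virgin mutant was Brca1 D11/D11;p53+/- and its control, written Brca1 D+/+;p53+/- in the labels, was also heterozygous for p53, both at 6 months of age. The pregnant mutant was Brca1 co/co/MMTV-Cre and its control Brca1 +/co/MMTV-Cre, both at day 16.5 of pregnancy and 5 months of age. The lactating mutant was again Brca1 D11/D11;p53+/- with a Brca1 D+/+;p53+/- control, both at day 1 of lactation and 2 months of age. The design text gives all 3 pairs the genotypes of the virgin and lactating mice, and the labels of the single mice were followed here. In the pregnant pair Cre is driven by the MMTV promoter, which is active in mammary epithelium and some other tissues, so that loss of Brca1 there is limited to cells in which Cre was made, and both mice of that pair carry the Cre. Each combination of stage and genotype is a single mouse. Stage therefore cannot be told apart from age, or from the array date in the titles, which the lactating arrays do not share with the other 4. For the pregnant pair it also cannot be told apart from the Brca1 allele, the Cre or the p53 genotype. The labels of that pair name no p53 change.

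The values are MAS5 signals, the array software's estimate of a probe set's brightness, and all 6 arrays had been scaled to the same trimmed mean. Dim signals were brighter on the lactating arrays: probe sets of Y-linked genes, which should be dark in female mice, had median signals of 75.3 and 98.7 on the mutant and control lactating arrays and between 21.1 and 29.1 on the other 4. Of the luminal markers, Epcam lay between 8457 and 15004 over the 6 glands and Krt18 between 6790.3 and 11500.0, while Krt7 was dimmer, between 242 and 1101. Other luminal markers differed between stages, in both directions. Of the 14 tested, limma called 4 higher and 2 lower for lactating against virgin glands, at an adjusted p under 0.05. Their log2 ratios ran from -4.25 for Foxa1 to 2.05 for Elf3, so luminal content cannot be taken as constant from Epcam or Krt18. Wap, a whey protein gene, had signals of 885 and 382 in the mutant and control virgin glands, 30644 and 45084 in the pregnant pair, and 47507 and 44760 in the lactating pair. Csn2, which encodes beta-casein, had 33859.9 and 44423 in the mutant and control pregnant glands, against 40000.2 and 30621 in the glands labelled virgin, which overlap. Brca1 itself had signals of 486.5, 288 and 157 in mutant virgin, pregnant and lactating glands, against 137, 159 and 238 in the controls. Its fitted log2 ratio was 0.58 ± 0.37 (SE, mutant minus control, adjusted p = 0.943), and where its probes lie relative to the mutated part is not known here, so this checks nothing about the genotypes.

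As background, replication starts when the origin recognition complex, with Cdc6 and Cdt1, loads the Mcm2 to Mcm7 ring onto DNA in G1, and Cdc45 and the GINS complex turn that ring into a moving helicase in S phase. Most of the genes involved are transcribed together as cells pass from G1 into S phase, under E2F factors released from the retinoblastoma proteins, and their mRNAs are widely used as a gauge of cell proliferation. In the mammary gland the epithelium proliferates during pregnancy and largely leaves the cell cycle as milk secretion sets in, and Brca1 is known for its part in homologous recombination and the S and G2 checkpoints.

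The promoters were searched for the letters that E2F factors are known to bind. Of the 44 genes, 38 had a promoter in the RefSeq table (build GRCm38.p6), and the 250 bases before each start site were searched on both strands for 2 forms of the E2F motif, TTTCGCGC and TTTGGCGC, which can overlap each other, and for CCAAT, the motif of NF-Y. An E2F form was found for 7 of the 38 genes, or 18.4%, against 0.759% of all 27025 genes in that table. These were Dnmt1, Mcm5, Mcm6, Orc1, Pola1, Rfc3 and Uhrf1. CCAAT was found for 25 of the 38, or 65.8%, against 37.5% of all genes. A match describes the letters of a window and is not a measured binding site. The promoters of 5 genes follow, all but Rrm2 with an E2F form, so they do not stand for the share among the 38. Tcf19, Pold2, Mcm3, Pola2 and Rrm1, also described below, had no E2F form in the window. The sequences are read 5′ to 3′ on the gene's own strand and end at the start site. E2F forms and CCAAT, or its reverse complement ATTGG, are in capitals. Mcm5, at chr8:75109259-75109508 on the plus strand, has both E2F forms in 1 overlapping run and CCAAT at 2 places. Mcm6, at chr1:128359706-128359955 on the minus strand, has such a run too, followed by a lone second form. Uhrf1, at chr17:56304063-56304312 on the plus strand, has the first form, in 1 of its 2 annotated promoters. Pola1, at chrX:93632156-93632405 on the minus strand, has the second form. Rrm2, at chr12:24708004-24708253 on the plus strand, has neither form in this window and has CCAAT once.
Mcm5: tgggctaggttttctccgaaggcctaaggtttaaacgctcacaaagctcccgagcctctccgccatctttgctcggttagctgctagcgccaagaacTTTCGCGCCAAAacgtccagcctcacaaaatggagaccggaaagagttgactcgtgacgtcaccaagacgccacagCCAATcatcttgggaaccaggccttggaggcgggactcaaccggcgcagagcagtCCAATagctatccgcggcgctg
Mcm6: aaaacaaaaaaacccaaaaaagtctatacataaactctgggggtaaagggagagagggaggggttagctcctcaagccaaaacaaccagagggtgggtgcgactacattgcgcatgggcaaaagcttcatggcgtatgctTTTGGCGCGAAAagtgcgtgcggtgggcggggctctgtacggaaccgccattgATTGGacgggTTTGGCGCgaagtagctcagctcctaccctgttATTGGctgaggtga
Uhrf1: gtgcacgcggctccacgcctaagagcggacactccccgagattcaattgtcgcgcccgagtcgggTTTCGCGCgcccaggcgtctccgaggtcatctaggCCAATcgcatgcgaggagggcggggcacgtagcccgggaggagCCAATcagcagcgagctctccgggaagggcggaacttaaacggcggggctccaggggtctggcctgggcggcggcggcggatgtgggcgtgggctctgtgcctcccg
Pola1: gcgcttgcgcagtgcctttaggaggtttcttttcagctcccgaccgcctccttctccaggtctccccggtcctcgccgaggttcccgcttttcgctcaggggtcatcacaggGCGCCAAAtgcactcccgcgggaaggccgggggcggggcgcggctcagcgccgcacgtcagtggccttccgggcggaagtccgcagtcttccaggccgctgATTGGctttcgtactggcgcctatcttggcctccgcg
Rrm2: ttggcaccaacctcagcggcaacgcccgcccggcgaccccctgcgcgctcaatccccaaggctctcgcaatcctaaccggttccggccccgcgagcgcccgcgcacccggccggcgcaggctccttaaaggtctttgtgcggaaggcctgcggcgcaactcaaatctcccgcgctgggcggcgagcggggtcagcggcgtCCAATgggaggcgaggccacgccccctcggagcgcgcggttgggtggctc

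The first comparison asked how replication genes in Brca1 mutant glands stood against controls of the same stage. The fitted log2 ratio of mutant over control lay above 0 for 40 of the 40 genes that passed the filter, against 55.6% of all genes tested, with a range between 0.07 and 1.15. These ratios are on the log2(signal + 52.1) scale, which understates the difference of dim genes. Their median was 0.45, against 0.03 over all 11569 genes. None passed the test: limma called 0 of the 40 in either direction at an adjusted p under 0.05, as it called 0% of all genes, and the adjusted p of the 40 lay between 0.943 and 0.988. At an unadjusted p under 0.05 there were 19 of the 40, against 4.7% of all genes. All 40 ratios stayed above 0 after quantile normalization and after median centring, but the number above 0 was 39 of 40 with the 10th percentile as pseudocount, 32 of 34 with probe sets averaged per gene, 35 of 40 without the virgin pair and 37 of 40 without the pregnant pair. The 40 genes are read from the same 6 glands, so their number adds no replicates to the 3 pairs. In whole tissue, more or fewer cells in S phase and more or less of these mRNAs per cell cannot be told apart.

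Within single pairs the median was lowest in lactation. The median log2 ratio of the 40 genes was 0.53 in the virgin pair, 0.69 in the pregnant pair and 0.25 in the lactating pair, where the medians of all genes were 0.02, 0.02 and 0.04, and the SD over the 3 pairs was 0.22. The mutant lay above its control for 39 of 40 genes in the virgin pair (52.2% of all genes), for 38 in the pregnant pair (52.4%) and for 29 in the lactating pair (54.1%). In all 3 pairs the mutant was the higher for 26 of the 40, or 65% against 15.1% of all genes, and for 0 was it the lower in all 3, against 10.6%. A difference of at least 1.5-fold was seen for 18 genes in the virgin pair (7.87% of all genes), 24 in the pregnant pair (5.84%) and 12 in the lactating pair (11.3%). In both the virgin and the pregnant pair it was seen for 12 genes, or 30% against 0.726%. On the lactating arrays 7 of the 40 genes in the mutant and 14 in the control lay under the 75th percentile of the Y-linked probe sets. The lactating ratios of those genes thus involve signals at the dark level. Differences between the pairs were not tested, since each is 1 mouse against 1.

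**Figure D1:**
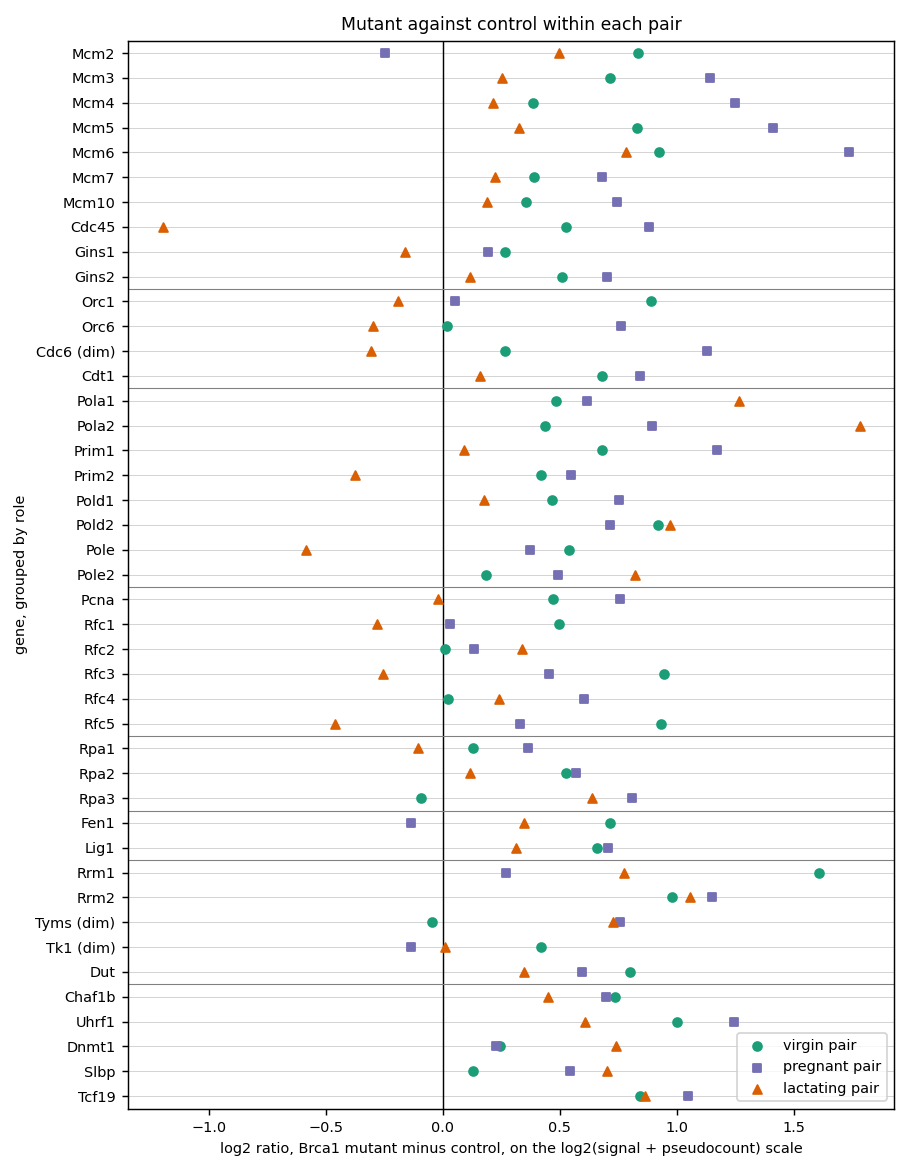
Log2 ratio of mutant over control (log2(signal + pseudocount) scale, x axis) for 43 genes grouped by role, with 1 point per pair (circle virgin, square pregnant, triangle lactating) and dim genes that were not tested marked. Most virgin and pregnant points lie to the right of 0, while 11 of the 40 tested genes have their lactating point to the left of it, Cdc45 farthest at -1.20. The second Cdc45 probe set, not drawn, had 247 in the lactating mutant and 224 in the control.

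Among the helicase genes, Mcm6, a subunit of the ring, had signals of 1475, 1585 and 218 in mutant virgin, pregnant and lactating glands, against 753.5, 440.4 and 105 in control glands of the same stages. Each mutant was above the control of its stage, by log2 ratios of 0.92, 1.73 and 0.78, although the lactating mutant was below the virgin and pregnant controls. The fitted ratio was 1.15 ± 0.23 (SE, 3 pairs), but it was 0.70 on the probe set used when cross-hybridising ones were set aside, 0.53 with probe sets averaged and 0.62 with the median of all values as pseudocount. Mcm5, the ring subunit that meets Mcm2 at the gate through which DNA enters, had signals of 1997, 2608 and 121 in mutant virgin, pregnant and lactating glands, against 1102, 948 and 86.4 in control glands of the same stages. The mutant was again higher at each stage, with the widest gap in pregnancy, and the fitted ratio was 0.85 ± 0.23. The second Mcm5 probe set gave 0.33 and had the lactating mutant, at 109, below its control, at 200, and with probe sets averaged the ratio was 0.25. Mcm3, the neighbour of Mcm5 in the ring, had signals of 1233, 1065 and 381 in mutant virgin, pregnant and lactating glands, against 731, 454 and 311 in control glands of the same stages. Its ratios of 0.71, 1.14 and 0.25 in the virgin, pregnant and lactating pairs were widest in pregnancy, as for Mcm5, and the fitted ratio was 0.70 ± 0.21. The other 7 helicase genes (Mcm2, Mcm4, Mcm7, Mcm10, Cdc45, Gins1 and Gins2) had fitted ratios between 0.07 and 0.62. Mcm2 was the exception in pregnancy on its main probe set, where the mutant had 845 and the control 1014. Its second probe set had 929 in the pregnant mutant and 354 in the control. Over all 10 helicase genes the median ratio was 0.52 in virgin, 0.81 in pregnant and 0.22 in lactating glands.

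Of the origin licensing genes, Orc1, the ATPase subunit of the origin recognition complex, Orc6, its smallest subunit, and Cdt1, which escorts the Mcm ring, were tested. Cdt1 was higher in the mutant of every pair, with signals of 1503, 1425 and 639.5 in mutant virgin, pregnant and lactating glands, against 919.9, 771 and 568 in control glands of the same stages and a fitted ratio of 0.56 ± 0.19. Orc1 and Orc6 had smaller fitted ratios, 0.25 ± 0.25 and 0.16 ± 0.25, and both were lower in the mutant than in the control of the lactating pair. Cdc6, the loader that recruits the ring, was too dim to test and had signals of 184, 244 and 11.1 in mutant virgin, pregnant and lactating glands, against 144.5, 83.4 and 26.2 in control glands of the same stages.

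The polymerase and primase genes had a median fitted ratio of 0.57 over 8 genes, with pair medians of 0.47, 0.66 and 0.50 in virgin, pregnant and lactating glands. Pold2, an accessory subunit of polymerase delta, had signals of 875, 728 and 649 in mutant virgin, pregnant and lactating glands, against 439, 424 and 306 in control glands of the same stages. Every mutant signal was above every control signal, and the fitted ratio was 0.87 ± 0.17. Pola1, the catalytic subunit of the polymerase that makes the first stretch of DNA on each primer, had signals of 562, 558 and 222 in mutant virgin, pregnant and lactating glands, against 388, 346 and 62.0 in control glands of the same stages. Pola2, its partner subunit, had signals of 397, 434 and 241 in mutant virgin, pregnant and lactating glands, against 280.1, 209 and 33.3 in control glands of the same stages. Both had their widest gap in the lactating pair, with log2 ratios of 1.27 for Pola1 and 1.78 for Pola2, where the control signals of 62.0 and 33.3 lay within the range of the Y-linked probe sets on that array. The fitted ratios were 0.79 ± 0.23 for Pola1 and 1.04 ± 0.30 for Pola2, or 0.67 for Pola2 without the lactating pair. Prim1, the catalytic primase subunit, had a fitted ratio of 0.65 ± 0.23, while Prim2 and Pole, the catalytic subunit of the leading-strand polymerase, were at 0.20 ± 0.23 and 0.11 ± 0.30 and had the lower signal in the lactating mutant.

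The clamp and clamp loader genes had a median fitted ratio of 0.28 and the single-strand binding genes one of 0.40. Pcna, the sliding clamp, had signals of 9250.4, 7276 and 1531 in mutant virgin, pregnant and lactating glands, against 6660.1, 4291 and 1553 in control glands of the same stages. The mutant was above its control in the virgin and pregnant pairs and level with it in lactation, and the fitted ratio was 0.40 ± 0.19. The 5 clamp loader genes Rfc1 to Rfc5 had fitted ratios between 0.08 and 0.38, and in the lactating pair Rfc1, Rfc3 and Rfc5 were lower in the mutant. Rpa1, Rpa2 and Rpa3, the subunits of the single-strand binding protein, had fitted ratios of 0.13 ± 0.16, 0.40 ± 0.20 and 0.45 ± 0.21. Of the Okazaki fragment enzymes, the ligase gene Lig1 had 0.56 ± 0.18 and the flap nuclease gene Fen1 had 0.31 ± 0.19.

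Nucleotide supply held the gene with the largest test statistic. Rrm2, the small subunit of ribonucleotide reductase, which makes deoxynucleotides in S phase, had signals of 1455, 2711 and 573 in mutant virgin, pregnant and lactating glands, against 712, 1192 and 248 in control glands of the same stages. Its ratios within the pairs were nearly equal, at 0.98, 1.15 and 1.06. The fitted ratio was 1.06 ± 0.16 (limma adjusted p = 0.943). Rrm1, the large subunit, had signals of 1370.1, 1216 and 607 in mutant virgin, pregnant and lactating glands, against 415, 999 and 333 in control glands of the same stages. Its gap was widest in the virgin pair, at a log2 ratio of 1.61, and narrowest in the pregnant pair, at 0.27, and the fitted ratio was 0.88 ± 0.26, or 0.52 without the virgin pair. Dut, which removes dUTP, had a fitted ratio of 0.58 ± 0.18. Tyms and Tk1, the thymidylate synthase and thymidine kinase genes, were too dim to test, with log2 ratios of -0.05, 0.76 and 0.72 for Tyms and 0.42, -0.14 and 0.01 for Tk1 in virgin, pregnant and lactating pairs.

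All 5 tested genes of chromatin and methylation had the higher signal in the mutant of each pair. Uhrf1, which binds hemimethylated DNA behind the fork and recruits Dnmt1, had signals of 1136, 1156 and 118 in mutant virgin, pregnant and lactating glands, against 543, 458 and 59.6 in control glands of the same stages. The mutant was the brighter in the virgin and pregnant pairs, while both lactating signals were under the 75th percentile of the Y-linked probe sets on their arrays. The fitted ratio was 0.95 ± 0.20, and 0.62 with probe sets averaged. Tcf19, a growth-regulated gene induced late in G1, had signals of 953, 1132 and 327 in mutant virgin, pregnant and lactating glands, against 509, 521 and 156 in control glands of the same stages. As with Rrm2, its ratios were close to each other, at 0.84, 1.05 and 0.86, and the fitted ratio was 0.92 ± 0.17. The lactating control signal was under the 75th percentile of the Y-linked probe sets on its array, 231. The second Tcf19 probe set, also above the filter, gave 0.31. Chaf1b, a subunit of chromatin assembly factor 1, Slbp, which binds the stem-loop of replication-dependent histone mRNAs, and Dnmt1, the maintenance methyltransferase, had fitted ratios of 0.63 ± 0.22, 0.46 ± 0.18 and 0.40 ± 0.17.

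A reading from other probes of the same genes gave the same direction. There were 28 further probe sets above the filter, of 22 of these genes. For mutant against control 26 of the 28 had a positive ratio, and their median was 0.46.

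**Figure D2:**
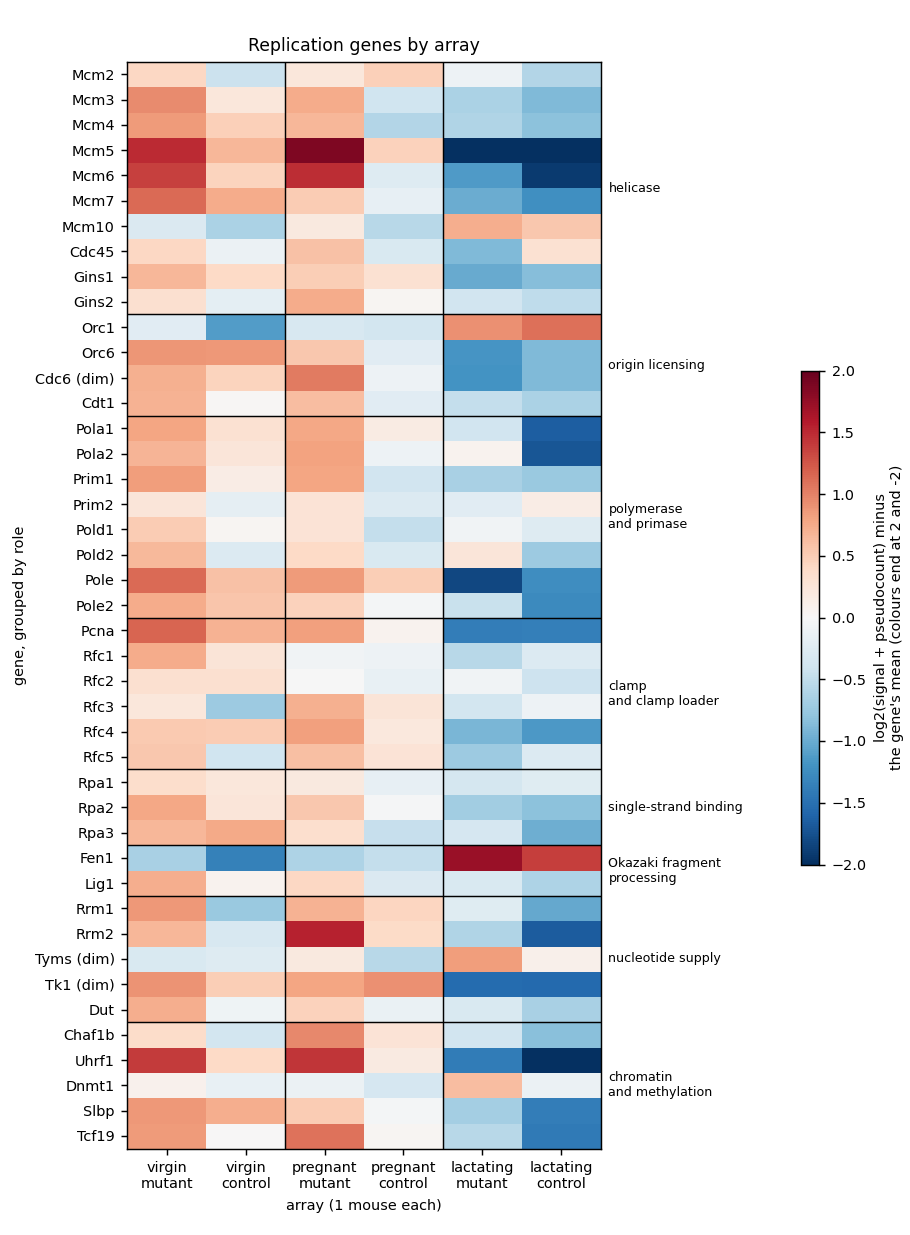
Log2(signal + pseudocount) of each gene minus its mean over the 6 arrays (colour, ending at 2 and -2), with 43 genes as rows grouped by role and 1 column per mouse, the mutant left of its control. The lactating columns are blue for most genes and red for Fen1, Orc1 and Mcm10, and the mutant column is the warmer of the virgin and the pregnant pair for most genes.

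The wider replication machinery and its neighbours were read from lists of further genes. Among 34 tested of 41 other replication genes, limma called 0 and 30 had a positive ratio, with a median of 0.22. Nasp, a histone chaperone, came first by p, at 0.63 ± 0.17, followed by Cdc7, the kinase that fires origins, at 0.53 ± 0.20. Of 19 tested nucleotide synthesis enzymes 16 had a positive ratio, with a median of 0.22, and of 14 tested G1 to S regulators 10 had one, with a median of 0.20. Each of these counts stands beside 55.6% of all genes with a positive ratio. Ccne1, which encodes cyclin E1, had the smallest p of the regulators, at 0.90 ± 0.30. The 24 tested mitosis genes had a median of 0.26, but their pair medians were 1.11 in the virgin pair, -0.01 in the pregnant pair and -0.26 in lactation. The mutant was above its control for 24 of the 24 in the virgin pair (52.2% of all genes), for 12 in the pregnant pair (52.4%) and for 6 in lactation (54.1%). Cdc20, which activates the anaphase-promoting complex, had signals of 2142, 1728 and 844 in mutant virgin, pregnant and lactating glands, against 655, 2018 and 727 in controls. In the pregnant pair the medians were thus 0.69 for the replication genes and -0.01 for the mitosis genes, a difference that was not tested.

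**Figure D3:**
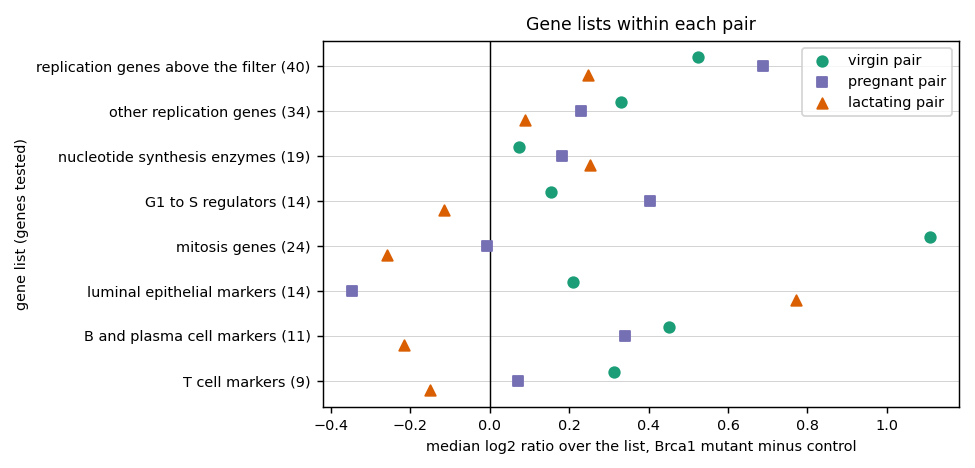
Median log2 ratio of mutant over control (x axis) for the 40 replication genes above the filter and for 7 other gene lists, with the number of genes tested in brackets and 1 point per pair (circle virgin, square pregnant, triangle lactating). The replication genes have positive medians in all 3 pairs (0.53, 0.69 and 0.25), the mitosis genes a high one in the virgin pair alone (1.11).

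Markers of cell types differed between the mice of a pair as well. The summed signal of 14 tested luminal epithelial markers was 60330, 62273 and 103136 in mutant virgin, pregnant and lactating glands, against 52364, 82023 and 66919 in controls, so the mutant was the lower in the pregnant pair. The 11 tested B and plasma cell markers had median log2 ratios of 0.45, 0.34 and -0.22 in the virgin, pregnant and lactating pairs, and the 9 tested T cell markers 0.31, 0.07 and -0.15. The 10 skeletal muscle markers summed to 14401, 178120 and 77138 in mutants against 41529, 157033 and 79324 in controls. No marker was at 0 on any array. The ratio of 3′ to 5′ signal of the Gapdh control probes, which rises as RNA is degraded, was 1.52, 0.80 and 1.20 in mutants against 3.50, 0.73 and 1.09 in controls, so the virgin control stood apart. The part of these in the mutant to control ratios was not tested.

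The second comparison set lactating glands against both earlier stages. Against pregnant glands limma called 21 of the 40 lower (16.8% of all genes) and 3 higher (15.1%), with 16 not called. Against virgin glands it called 26 lower (28.2% of all genes) and 3 higher (23.8%), with 11 not called. The median log2 ratio of the 40 genes was -0.91 against pregnant and -1.05 against virgin glands, where the medians of all genes were -0.03 and -0.10. Both comparisons use the same lactating arrays. Of the 40 genes, 19 fell against both stages, against 14.2% of all genes, and 25 had both lactating signals below the other 4, or 62.5% against 29.8% of all genes. The median against pregnant glands was -1.14 between mutants and -0.54 between controls, a difference that was not tested. Under the 75th percentile of the Y-linked probe sets lay 7 of the 40 genes on the mutant lactating array and 14 on the control one.

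**Figure D4:**
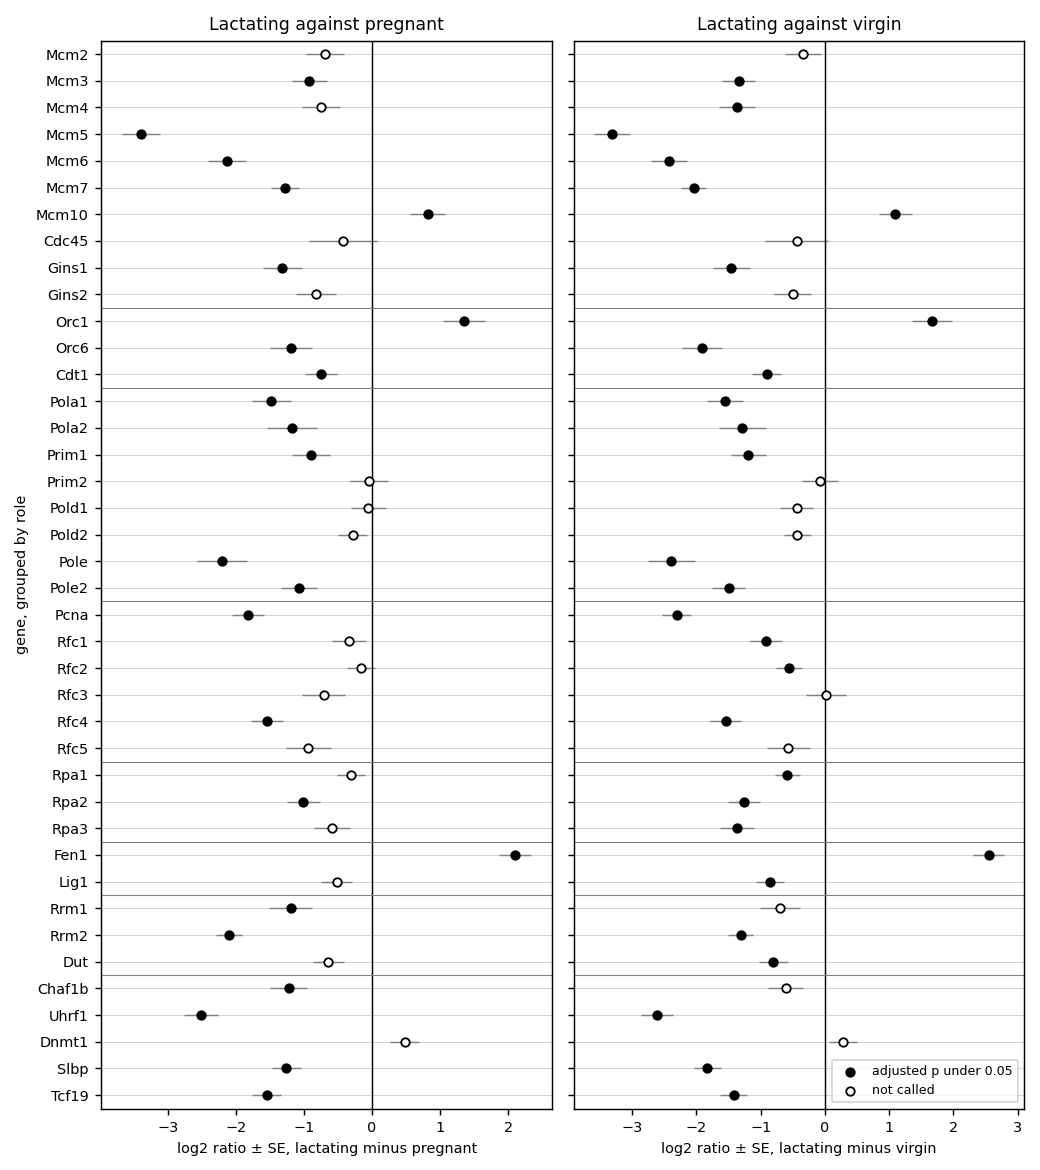
Fitted log2 ratio ± SE of lactating over pregnant glands (left) and lactating over virgin glands (right) for the 40 tested genes grouped by role, with filled points at a limma adjusted p under 0.05 and open points above it. Mcm5 lies farthest to the left in both panels (-3.40 and -3.31), and Fen1, Orc1 and Mcm10 are the filled points to the right of 0.

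Of the 6 ring genes, 4 fell against both stages. Mcm5 had signals of 121 in the mutant and 86.4 in the control lactating gland, against 948 or more in the other 4. Both lactating signals were under the 75th percentile of the Y-linked probe sets on their arrays, so the size of the fall is only a bound. The log2 ratio was -3.40 ± 0.28 against pregnant glands (adjusted p = 0.00102) and -3.31 ± 0.28 against virgin glands (adjusted p = 0.000209), and the second probe set gave -1.76 and -1.79. Mcm6 fell, at a log2 ratio of -2.13 ± 0.28 against pregnant glands (adjusted p = 0.00356), with no overlap between lactating and earlier signals, and its second probe set above the filter gave -3.86. Mcm7 had signals of 865 in the mutant and 734 in the control lactating gland, against 2558 and 1578 in the pregnant pair and 3959 and 3014 in the virgin pair. Every lactating signal lay below every earlier one, and the ratios were -1.28 ± 0.20 against pregnant (adjusted p = 0.00553) and -2.05 ± 0.20 against virgin glands (adjusted p = 0.000356). Mcm2 had signals of 666 in the mutant and 457 in the control lactating gland, against 845 and 1014 in the pregnant pair and 965 and 519 in the virgin pair. It was not called in either comparison, with adjusted p of 0.0961 and 0.344, and its lactating mutant lay above the virgin control. The second Mcm2 probe set had 225 and 204 in the mutant and control lactating glands and between 354 and 929 in the other 4. Its ratios were -1.25 against pregnant and -1.21 against virgin glands. Mcm3 fell against both stages, Mcm4 against virgin glands alone, and of the factors that activate the ring Gins1 fell against both while Gins2 and Cdc45 were not called.

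Of the origin genes, Orc6 had signals of 106 in the mutant and 143 in the control lactating gland, against 470 and 256 in the pregnant pair and 610.1 and 603 in the virgin pair. It fell, at a log2 ratio of -1.19 ± 0.31 against pregnant (adjusted p = 0.0261) and -1.91 ± 0.31 against virgin glands (adjusted p = 0.00216). Cdt1 fell against both as well, and the untested Cdc6 had 11.1 and 26.2 in the mutant and control lactating glands and between 83.4 and 244 in the other 4.

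Of the 8 polymerase and primase genes 5 fell against both stages. Pole had signals of 16.2 in the mutant and 50.4 in the control lactating gland, against 386 and 287 in the pregnant pair and 477 and 312 in the virgin pair. Its lactating signals were both under the median of the Y-linked probe sets on their arrays. It fell, at a log2 ratio of -2.20 ± 0.36 against pregnant glands (adjusted p = 0.00621) and -2.39 ± 0.36 against virgin glands (adjusted p = 0.00162). Pole2, its accessory subunit, and Pola1, Pola2 and Prim1 fell against both stages too, Pola1 at a log2 ratio of -1.48 ± 0.28 against pregnant glands (adjusted p = 0.0101). Prim2, Pold1 and Pold2 were not called in either comparison, with ratios against pregnant glands between -0.28 and -0.04.

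The sliding clamp gene Pcna had lactating signals of 1531 in the mutant and 1553 in the control, which lay below all earlier ones. It fell, at a log2 ratio of -1.82 ± 0.23 against pregnant (adjusted p = 0.00337) and -2.31 ± 0.23 against virgin glands (adjusted p = 0.000363). Of its loader, Rfc4 had signals of 223 in the mutant and 180.3 in the control lactating gland, against 855 and 545 in the pregnant pair and 693 and 681 in the virgin pair and fell, at a log2 ratio of -1.54 ± 0.24 against pregnant glands (adjusted p = 0.0052). Rfc1 and Rfc2 fell against virgin glands alone, and Rfc3 and Rfc5 were not called. Rpa2 fell against both stages, and Rpa1 and Rpa3 against virgin glands alone.

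Rrm2 fell, at a log2 ratio of -2.10 ± 0.19 against pregnant glands (adjusted p = 0.00137) and -1.31 ± 0.19 against virgin glands (adjusted p = 0.00146), with every lactating signal below every earlier one. Rrm1 fell against pregnant glands alone, at a log2 ratio of -1.20 ± 0.31 (adjusted p = 0.0263), and the virgin control at 415 lay below the lactating mutant at 607. Tk1, untested, had 18.4 and 17.9 in the mutant and control lactating glands and between 236 and 337 in the other 4. Its mean log2 value, 7.68 with those lactating signals included, lay just under the filter at 7.72. Tyms, also untested, ran the other way in mutants and controls. Its signals were 233.5 and 121 in the mutant and control lactating glands, against 132 and 57.1 in the pregnant and 77.3 and 81.6 in the virgin pair. The lactating control signal was under the 75th percentile of the Y-linked probe sets on its array, 231. The other Tyms probe sets, all below the filter, gave -0.51, 0.05 and -0.60 against pregnant glands.

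Uhrf1 fell, at a log2 ratio of -2.51 ± 0.25 against pregnant glands (adjusted p = 0.00177) and -2.61 ± 0.25 against virgin glands (adjusted p = 0.000327), and no lactating signal overlapped an earlier one, though the size of the fall is only a bound. Slbp had signals of 803 in the mutant and 473 in the control lactating gland, against 1889.7 and 1279 in the pregnant pair and 2438 and 2225 in the virgin pair. It fell, at a log2 ratio of -1.26 ± 0.21 against pregnant (adjusted p = 0.00689) and -1.83 ± 0.21 against virgin glands (adjusted p = 0.00063). Tcf19 fell, at a log2 ratio of -1.55 ± 0.21 against pregnant glands (adjusted p = 0.00388) on its main probe set. Dnmt1, the partner of Uhrf1, had signals of 2244 in the mutant and 1324 in the control lactating gland, against 1328 and 1128 in the pregnant pair and 1538 and 1291 in the virgin pair. The lactating mutant was the highest of the 6, the other 5 overlapped, and the gene was not called, at 0.48 ± 0.21 against pregnant glands (adjusted p = 0.122).

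Fen1, Orc1 and Mcm10 rose in lactation. Fen1 had signals of 7774 in the mutant and 6108 in the control lactating gland, against 1488 and 1643 in the pregnant pair and 1466 and 874 in the virgin pair. Both lactating signals were above all others, and the ratios were 2.10 ± 0.24 against pregnant (adjusted p = 0.00255) and 2.55 ± 0.24 against virgin glands (adjusted p = 0.000303). Orc1 had signals of 691 in the mutant and 797 in the control lactating gland, against 265 and 254 in the pregnant pair and 287 and 131 in the virgin pair, again with no overlap, and rose by 1.35 ± 0.31 (adjusted p = 0.0174) and 1.67 ± 0.31 (adjusted p = 0.0037). Mcm10, which helps activate the helicase, had signals of 585 in the mutant and 507 in the control lactating gland, against 387 and 209.8 in the pregnant pair and 263 and 194 in the virgin pair. It rose by 0.82 ± 0.26 against pregnant (adjusted p = 0.0456) and 1.10 ± 0.26 against virgin glands (adjusted p = 0.00942). After centring each array on its median Mcm10 was called in neither, at 0.40 (adjusted p = 0.24) and 0.51 (adjusted p = 0.119).

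Further probe sets of these genes did not all move with the main one, and the name of the main Fen1 probe set carries the maker's suffix for probes that may match other transcripts. The main probe sets of Mcm5, Mcm6, Pold1 and Rrm2, which were not among the genes that rose, carry the same suffix. The second Fen1 probe set had 936 in the mutant and 978 in the control lactating gland, against 1058 and 788 in the pregnant pair and 656.5 and 428 in the virgin pair, a ratio of 0.06 against pregnant and 0.79 against virgin glands. The second Orc1 probe set, below the filter, had 138 in the mutant and 151 in the control lactating gland, against 238 and 125 in the pregnant pair and 159 and 139 in the virgin pair, with ratios of -0.21 and -0.03. For Mcm10 both further probe sets lay below the filter, with ratios of 0.87 and 0.33 against pregnant glands. Tcf19 also had a second probe set that opposed the first: it had 2012 in the mutant and 1949 in the control lactating gland, against 291.5 and 216 in the pregnant pair and 100.5 and 54.4 in the virgin pair, a ratio of 2.74 against pregnant glands, and with the mean of its probe sets Tcf19 stood at 0.60 (adjusted p = 0.0579). For Dnmt1 both further probe sets had negative ratios against pregnant glands, at -0.44 and -1.58. Some other genes not called in either comparison had a second probe set above the filter. Against pregnant glands it gave -1.25 for Mcm2, -1.69 for Gins2, -2.50 for Rfc3 and -0.77 for Prim2. For Cdc45 and Pold1 it gave 0.82 and 0.28. None of these ratios was tested. Over all 28 further probe sets above the filter, 23 had the sign of the main one against pregnant glands and 20 against virgin glands.

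**Figure D5:**
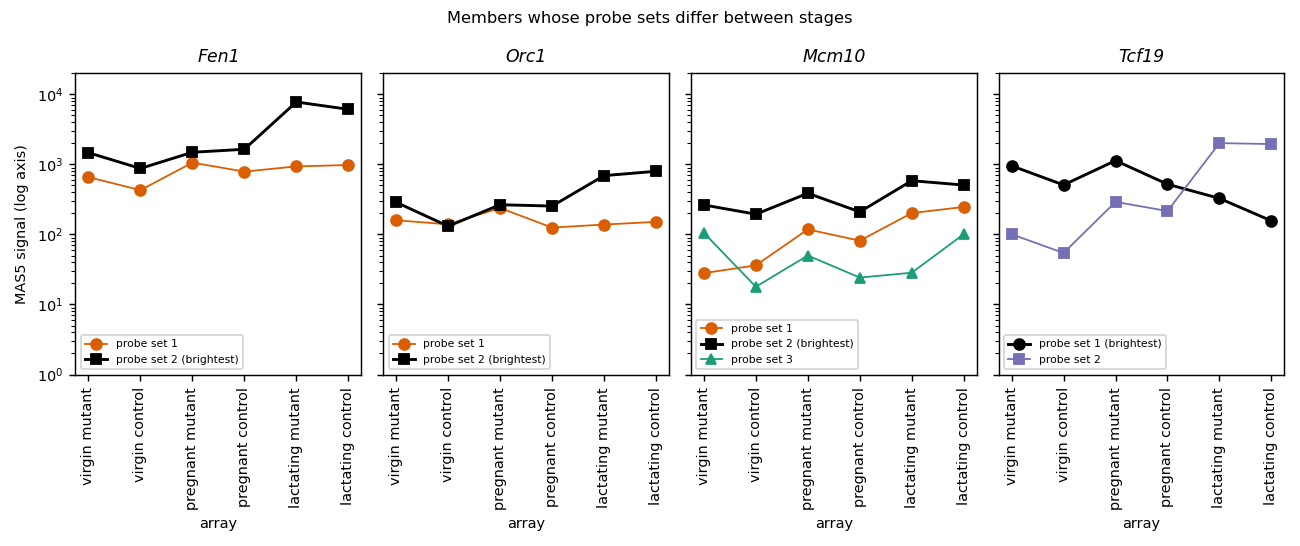
MAS5 signal (log axis) on the 6 arrays for each probe set of 4 genes, with the brightest by mean log2 signal in black. In the mutant and control lactating glands the main Fen1 probe set lies at 7774 and 6108 and the second at 936 and 978, and the probe sets of Tcf19 cross.

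Other genes of the cell cycle were mixed too. Of 34 other replication genes 11 fell and 0 rose against pregnant glands, with a median of -0.34. They included Rbbp7, a histone chaperone subunit, at -1.56 ± 0.19 (adjusted p = 0.00323), Nasp at -1.50 ± 0.21, and the fork protection factor gene Tipin at -1.62 ± 0.29. Among nucleotide synthesis enzymes 5 of 19 fell and 0 rose, led by the thymidylate kinase gene Dtymk at -2.11 ± 0.20 (adjusted p = 0.0015) and the deoxycytidine kinase gene Dck at -1.82 ± 0.22. Among G1 to S regulators 4 of 14 fell and 1 rose, Cdc25a, a phosphatase that activates Cdk2, at 1.25 ± 0.25 (adjusted p = 0.0114). Of 24 mitosis genes 5 fell and 1 rose, where the spindle checkpoint gene Mad2l1 fell, at -1.68 ± 0.25 (adjusted p = 0.00486) and the spindle assembly factor gene Tpx2 rose by 2.78 ± 0.27 (adjusted p = 0.00168). Each of these shares stands beside 16.8% of all genes lower and 15.1% higher. Against virgin glands 14 of the 34 other replication genes fell and 3 rose, 8 nucleotide synthesis enzymes fell and 0 rose, 5 G1 to S regulators fell and 2 rose, and 7 mitosis genes fell and 1 rose, beside 28.2% of all genes lower and 23.8% higher.

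The lactating arrays differed in other measured ways. With the brighter dark signals given above, 7 of the 40 genes on the mutant and 14 on the control lactating array lay under the 75th percentile of the Y-linked probe sets, against 0 on each of the other 4 arrays, so for these genes a lactating signal gives only a bound. Both arrays counted Mcm5, Gins1, Gins2, Orc6, Pole and Uhrf1. The 8 milk genes summed to 307776 and 288664 in the mutant and control lactating glands, against 184245 and 259560 in the pregnant and 108516 and 88017 in the virgin pair. The 9 tested adipocyte markers summed to 53103 and 59763, against 84084 and 98317 and against 135874 and 132364. The 8 fibroblast markers had a median log2 ratio of -2.26 against pregnant glands, with 7 called lower, and -3.00 against virgin glands, and summed to 21230 and 14147 in the mutant and control lactating glands, against 83519 and 73217 in the pregnant and 126272 and 126002 in the virgin pair. The 10 macrophage markers had medians of -1.34, with 7 called lower and 1 higher, and -1.68. The part of these in the fall was not tested. Calls rested in part on single mice: without the pregnant mutant 7 of the 40 were called lower and 1 higher against pregnant glands, and 1 was called higher without the pregnant control or without the lactating control.

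The third comparison, pregnant against virgin glands, concerned the proliferative stage of the gland. Limma called 1 of the 40 higher, Rrm2 (6.38% of all genes), and 1 lower, Mcm7 (7.98%), and 38 were not called. The median log2 ratio was -0.15, against -0.06 for all genes, and 12 of the 40 had a positive ratio, against 45.3% of all genes. Further probe sets did not share this direction. Of 28 above the filter, 15 had the sign of the main one and 16 a positive ratio, with a median of 0.048. Rrm2 had signals of 2711 and 1192 in the mutant and control pregnant glands, against 1455 and 712 in the virgin pair. The pregnant control lay between the virgin glands, so the groups overlapped, and the ratio was 0.79 ± 0.19 (adjusted p = 0.0362). Mcm7 was lower in both pregnant glands than in both virgin glands, at a log2 ratio of -0.77 ± 0.20 (adjusted p = 0.0444), but its 3 other probe sets gave 0.06, -0.60 and 0.35. Neither call was made without any 1 of the 4 arrays compared, with an adjusted p between 0.104 and 0.379. Rfc3 and Chaf1b had ratios of 0.73 ± 0.31 and 0.62 ± 0.27 and Rpa3 and Orc6 of -0.78 ± 0.26 and -0.72 ± 0.31, none called. Of the 34 other replication genes, Pold3, a subunit of polymerase delta, rose by 1.46 ± 0.28 (adjusted p = 0.0178), and Orc3 and Rnaseh2b fell. The skeletal muscle markers summed to 178120 and 157033 in the mutant and control pregnant glands, against 14401 and 41529 in the virgin pair. The T cell markers had a median log2 ratio of -1.52, with 6 of 9 called lower, the B and plasma cell markers -1.17, with 7 of 11 lower and 1 higher, and the endothelial markers -0.94, with 5 of 8. The part of all these was not tested.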

How the data were processed

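Biotin-labelled total RNA from whole mammary glands was measured on mouse expression arrays, per the labels. The deposited intensities are linear MAS5 signals for single probe sets. MAS5 made them per the submitters' processing notes, and its version is not given there. Without further scaling, each value became log2(signal + 52.1), the added constant being the 25th percentile of all signals. Log2 ratios of dim genes are therefore understated.

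The 45101 probe sets include 34945 with 1 gene symbol, 932 with several, 9160 unnamed here and 64 controls. Each of 18193 genes, 18032 of them matched to RefSeq by gene ID, was read from its probe set with the highest mean. The filter on dim genes set aside those whose log2 values averaged under 7.72, the median over probe sets. All 11569 others were fitted in 1 limma model over the 6 arrays (limma 3.58.1 under R 4.3.3, with a variance trend in eBayes) with stage as a block and genotype as a term. The residual degrees of freedom were 2, beside a prior of 5.50. Calls were made at 0.05 on p-values adjusted over all genes (Benjamini-Hochberg). The model was tested on simulated data. Mice were paired by the stage their labels give, and deviations from the genotype means correlated within each pair (r = 0.855 virgin, 0.585 pregnant, 0.822 lactating, across genes, which are not independent replicates). With 1 mouse per stage and genotype, the number of arrays limits the precision. The residual spread behind the p-values, beside the prior, is how the mutant to control ratio differed from pair to pair. The pairs also differ in age, and the pregnant pair in its Brca1 allele. Spread between mice of the same stage and genotype was not measured, so the p-values, those of the stage comparisons included, do not take it into account. Ratios within 1 pair carry no test.

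The genes, the other lists and the tests were chosen with earlier results of these data known. Signals of all 6 arrays are given for at least the 10 genes with the largest moderated t for mutant against control, the 10 called genes with the largest ratio in each comparison of stages, and genes that go against the direction of most. Of other lists, up to 4 genes with the smallest p are named. Alternatives were quantile normalization, median centring, other pseudocounts and filters, other rules for the probe set, no variance trend, no stage block, no genotype term, and leaving out arrays or pairs. Promoter sequences are RefSeq's (GRCm38.p6), 250 bases before each start site.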

Additional observations from a re-analysis of the deposited data

Results flagged for a closer look

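For 14 of the 40 genes tested, 1 pair had the opposite sign to the other 2 for mutant over control. A shared sign was more common among the 40 than among all genes. The mutant was the higher in all 3 pairs for 65% of the 40, against 15.1% of all genes. It was the lower in all 3 for 0%, against 10.6% of all genes. None of the differences between pairs was tested, since each pair is 1 mouse against 1. The lactating pair stood alone for 11 genes, with log2 ratios of -1.20 for Cdc45, -0.59 for Pole, -0.46 for Rfc5, -0.37 for Prim2, -0.30 for Orc6, -0.28 for Rfc1, -0.255 for Rfc3, -0.19 for Orc1, -0.16 for Gins1, -0.11 for Rpa1 and -0.020 for Pcna. Pole, Orc6 and Gins1 on both lactating arrays, and Cdc45 on the mutant one, lay under the 75th percentile of the Y-linked probe sets, so these 4 ratios involve signals at that dark level. The second Cdc45 probe set had 247 in the lactating mutant and 224 in the control. For Prim2, Rfc1, Rfc3 and Rpa1 the further probe sets above the filter were lower in the lactating mutant, as the main ones were. The pregnant pair stood alone for Mcm2 at -0.25 and Fen1 at -0.14, and the virgin pair for Rpa3 at -0.092. The second probe set had the pregnant mutant higher for Mcm2, at 929 against 354, and for Fen1, at 1058 against 788. By role, the lactating pair alone had a negative median for origin licensing genes (-0.19) and for the clamp and its loader (-0.14).

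Among the other lists, the lactating pair alone had a negative median for G1 to S regulators (-0.12), B and plasma cell markers (-0.22) and T cell markers (-0.15). The virgin pair alone had a positive median for mitosis genes (1.11), and the pregnant pair alone a negative one for luminal epithelial markers (-0.35). These differences were not tested either.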

How the results depend on the processing

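For mutant against control, 0 genes were called under every alternative run, and the median log2 ratio of the genes tested lay between 0.375 with the higher pseudocount and 0.483, and between 0.367 and 0.606 as each pair was left out. For lactating against pregnant glands, the 21 genes called lower became 32 after centring each array on its median and 10 with the filter at the 75th percentile, and ranged from 7 without the pregnant mutant to 23 as each array was left out. The 3 called higher became 1 with that filter or with probe sets averaged per gene, and ranged from 1 to 2 as arrays were left out. The median of -0.91 ranged from -1.10 to -0.66. For lactating against virgin glands, the filter left 14 called lower and 1 higher. Leaving out arrays gave 19 to 26 lower, 2 to 3 higher and medians from -1.20 to -0.73, and the median was -1.64 after centring and -0.75 with the mean of probe sets. For pregnant against virgin glands, the 1 call in each direction became 0 after quantile normalization, without a filter, with the mean of probe sets, with cross-hybridising probe sets set aside, without the variance trend and without the genotype term, and the higher call was also 0 after centring. Leaving out arrays gave 0 to 1 higher, 0 to 2 lower and medians from -0.326 to -0.076. The median was -0.33 after centring, -0.29 with the filter and -0.084 with the mean of probe sets. Without both lactating arrays, an alternative added after seeing the data, 2 genes were called lower. Centring moved the median of all genes to -0.24 for pregnant against virgin, -0.44 for lactating against pregnant and -0.69 for lactating against virgin glands, and all calls to 495 higher and 1356 lower, 784 and 3816, and 1319 and 5727, against 738 and 923, 1750 and 1947, and 2755 and 3265 at the deposited scaling. Among single genes, Mcm7 turned to 0.058 for pregnant against virgin with cross-hybridising probe sets set aside, and Tcf19 to 0.60 for lactating against pregnant with the mean of its probe sets. The cause was not tested in any case. Brightness over the dark probe sets limits the lowest lactating signals.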
